A study of Rattus norvegicus with 13 samples.

Results

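Expression of 5 genes was followed through septal coronary arteries of old and young rats: that of the inflammatory caspases Casp1, Casp4 and Casp12, and the adaptors Pycard and Bcl10. They are the 5 of 96 gene probes on an array of cell death genes whose symbol in the platform annotation is one of these names, and each is read by 1 probe. The samples were 13 arrays of total RNA from the inbred strain F344, a rat widely used in ageing research. There were 6 arrays from rats aged 26 months (aged) and 7 from rats aged 3 months (young). The labels name no treatment, allele or sex. They state that TUNEL staining and a DNA fragmentation test had shown more endothelial apoptosis in the aged vessels. They do not say whether each array is a separate animal, so p-values measure array-to-array spread, part of which may be technical. Each value is a deposited linear ratio to beta-actin on the same array, rounded to 2 decimals. A blank cell was kept missing and counted as non-detection.

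Inflammatory caspases are proteases of innate immunity. Caspase-1, encoded by Casp1, is activated in inflammasomes, where it matures interleukin-1 beta and interleukin-18 and cuts gasdermin D to start lytic cell death. Casp4, also known as Casp11 in rodents, encodes the caspase that senses bacterial lipopolysaccharide inside the cell. Casp12 encodes a relative of both that lies at the endoplasmic reticulum and has been linked to stress there. Caspases of this group and their adaptors carry a caspase recruitment domain (CARD), through which they bind each other. Pycard encodes ASC, which joins an inflammasome sensor to caspase-1. Bcl10 encodes a CARD protein that works with Malt1 to switch on NF-kB and is not itself part of the classical inflammasome. In vessels these pathways are known from endothelial cells, smooth muscle and the macrophages of the wall.

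In the rat gene table (RefSeq, assembly GRCr8) Casp1, Casp4 and Casp12 are consecutive protein-coding genes, with Gria4 before Casp1 and Pdgfd after Casp12. Pycard and Bcl10 lie on other chromosomes. All 5 symbols were rat symbols in that table, but 0 of the 5 annotated gene IDs and 0 of the 5 accessions were found there. Which organism the probes were made from is not settled by this. The 3 caspases are related in sequence, and cross-hybridization between their probes was not tested. No probe sequence was used here, so none is shown. Levels of different probes were not compared as amounts of RNA.

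The 5 genes had low ratios. Of their 41 measured ratios, 16 were 0.05 or less, close to the smallest ratio in the table, 0.01. The lowest ratio of the set was 0.01 (Pycard and Casp12) and the highest 0.44 (Pycard). An array had a value for 52 to 80 of the 96 gene probes, and the median probe had one on 8 of the 13 arrays. Pycard had a value on 11 arrays, Casp1 and Casp12 on 8 each, and Casp4 and Bcl10 on 7 each. Only aged replicate 1 had a value for all 5 genes. Young replicate 3 had a value for 1 of them, Casp12 at 0.01, the floor of the table. The mean log2 ratio of the 15 probes with a value on every array, called the array level below, was -0.25 in aged and -1.06 in young arrays (difference 0.80, exact permutation p = 0.051, two-sided). Of 34 cell type markers, 2 were on the array (Cd40 and Cd27, both listed here as leukocyte markers). None of endothelium, smooth muscle, cardiomyocytes or fibroblasts was on it, so the labelled tissue could not be checked. In such whole-vessel RNA, fewer cells of a type and less RNA per cell cannot be told apart.

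**Figure D1:**
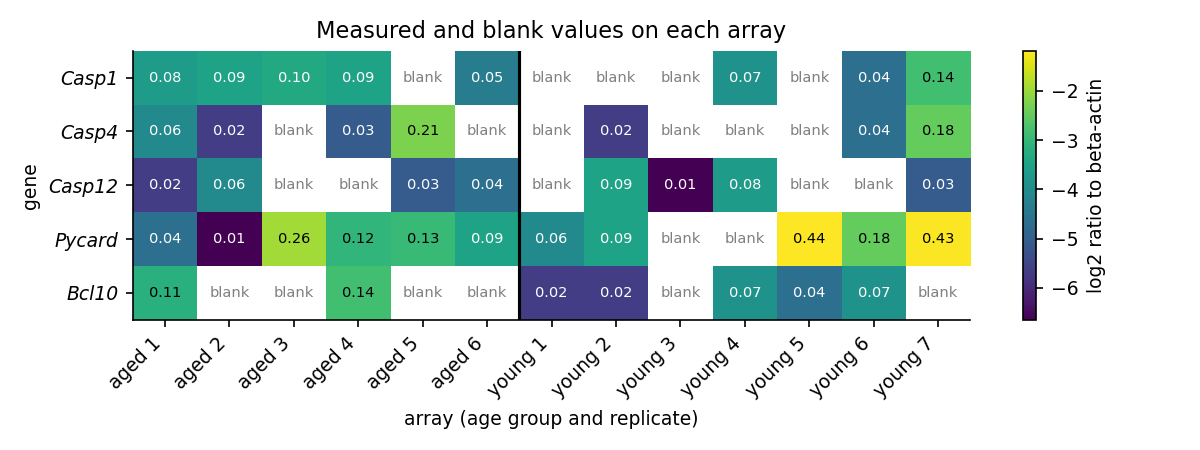
The plot gives the deposited ratio to beta-actin of each gene (rows) on each array (columns), coloured by log2 ratio, with cells without a value written as blank; a line separates the 6 aged from the 7 young arrays. Pycard has no blank on the aged arrays, Bcl10 has 4 blanks there, and young replicate 3 has a value for Casp12 only.

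The comparison of the age groups asks whether the genes differ in expression between 26-month and 3-month arteries. None of the 4 genes with enough values for the test, Casp1, Casp4, Casp12 and Pycard, rose or fell with age (limma, Benjamini-Hochberg adjusted over 70 probes). The test called 1 of the 70 probes, 1.43% of them, and that was Tnf, the proinflammatory cytokine (log2 difference 2.06, adjusted p = 0.031 by limma). At an unadjusted p under 0.05 limma likewise gave 0 of these 4 genes, beside 4 of the 70 probes (5.71%), and an exact permutation test called 0 probes. The aged mean of log2 ratios was the higher for 2 of the 4 genes, beside 40 of the 70 probes (57.1%), and their median difference was -0.07, beside 0.06 over all 70 probes. Bcl10 had 2 aged values, too few for the test.

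Casp1 had a narrow range in aged arteries. Its ratios were 0.08, 0.09, 0.10, 0.09 and 0.05 on aged replicates 1, 2, 3, 4 and 6, and replicate 5 was blank. On young replicates 4, 6 and 7 they were 0.07, 0.04 and 0.14, and the other 4 young arrays were blank. The 5 aged values lay inside the range of the 3 young ones. The means were 0.082 ± 0.019 in aged (SD, n = 5) against 0.083 ± 0.051 in young arteries (SD, n = 3). The log2 difference, aged minus young, was 0.13 (SE 0.65, 95% interval -1.23 to 1.48, adjusted p = 0.98 by limma). The interval reaches past a doubling either way, so the data do not show that Casp1 is unchanged. The difference was -0.31 without young replicate 6 and 0.59 without young replicate 7.

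Casp4 spread widely in both groups. It was 0.06, 0.02, 0.03 and 0.21 on aged replicates 1, 2, 4 and 5, and 0.02, 0.04 and 0.18 on young replicates 2, 6 and 7. In each group a single array, aged replicate 5 or young replicate 7, held the high value, and both arrays were among those of highest array level (0.15 and 0.12). The groups overlapped almost fully, with means of 0.080 ± 0.088 in aged (SD, n = 4) against 0.080 ± 0.087 in young arteries (SD, n = 3). The log2 difference was 0.0006 (SE 0.89, 95% interval -1.86 to 1.86, adjusted p = 1.0 by limma). Without aged replicate 5 it was -0.67, and without young replicate 7 it was 0.89. It was also negative without aged replicate 1 (-0.06), young replicate 2 (-0.69) or young replicate 6 (-0.19). Over its 7 arrays, age not removed, Casp4 and the array level had r = 0.780 (exact permutation p = 0.029, adjusted p = 0.11 over 79 probes). Spearman rho was 0.631 (exact permutation p = 0.14). Without the 2 arrays farthest from the median level, aged replicate 5 and young replicate 2, r was 0.768. Casp1 and Casp12 had r of 0.266 and -0.255 with the array level over 8 arrays each.

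Casp12 had no ratio above 0.09. Its aged ratios were 0.02, 0.06, 0.03 and 0.04 on replicates 1, 2, 5 and 6. Its young ratios were 0.09, 0.01, 0.08 and 0.03 on replicates 2, 3, 4 and 7. The young arrays held both the highest and the lowest value, and the aged values fell between them. Aged arteries averaged 0.038 ± 0.017 (SD, n = 4) and young ones 0.053 ± 0.039 (SD, n = 4). The log2 difference was -0.15 (SE 0.73, 95% interval -1.68 to 1.39, adjusted p = 0.98 by limma). A rounding step of 0.01 is large at this level: if each ratio lies anywhere within its step, the Casp12 difference could be from -0.64 to 0.42. Its direction turned without aged replicate 1 (0.12), young replicate 2 (0.26) or young replicate 4 (0.21).

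**Figure D2:**
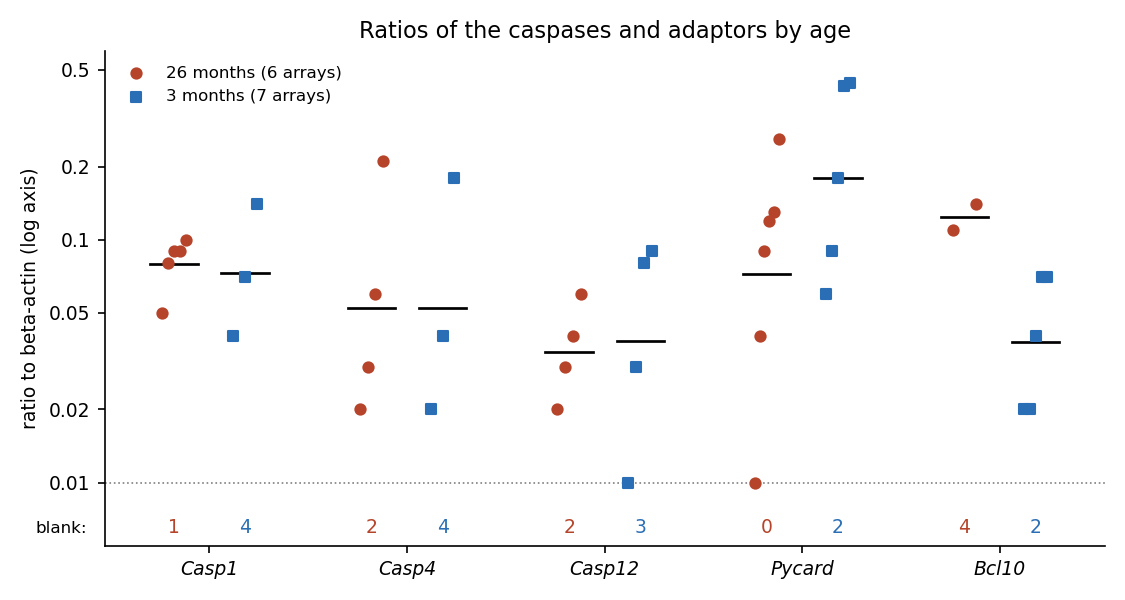
Points are ratios to beta-actin on single arrays, on a log axis, for aged (circles) and young (squares) arteries; black bars are means of log2 ratios, the dotted line is the smallest ratio of the table, 0.01, and the numbers at the bottom count blank arrays. The ages overlap for the 3 caspases and for Pycard, while both aged Bcl10 values lie above the 5 young ones.

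Pycard, the inflammasome adaptor, was lower on average in aged arteries, but not past the spread between arrays. On aged replicates 1 to 6 its ratios were 0.04, 0.01, 0.26, 0.12, 0.13 and 0.09. On young replicates 1, 2, 5, 6 and 7 they were 0.06, 0.09, 0.44, 0.18 and 0.43, and replicates 3 and 4 were blank. Young replicates 5 and 7 were above every aged array, young replicates 1, 2 and 6 were within the aged range, and aged replicate 2 was at the floor. The means were 0.108 ± 0.088 in aged (SD, n = 6) against 0.240 ± 0.183 in young arteries (SD, n = 5). The log2 difference was -1.30 (SE 0.74, 95% interval -2.83 to 0.23, unadjusted p = 0.092, adjusted p = 0.64 by limma). An exact permutation test gave an unadjusted p of 0.19 and an adjusted p of 0.82. Without aged replicate 2 the difference was -0.73, without young replicates 1 and 2 it was -2.16 (adjusted p = 0.46 by limma), and with blanks, 2 of them young Pycard cells, set to 0.01 it was -0.11. The 2 genes of the leukocyte list on the array also had lower aged means of log2 ratios, though the linear mean of Cd40 was higher in aged arteries. These 2 genes do not measure leukocyte content. Cd27 averaged 0.054 ± 0.022 on 5 aged against 0.150 ± 0.080 on 3 young arrays (SD), with a log2 difference of -1.45 (unadjusted p = 0.046, adjusted p = 0.64 by limma). Cd40 averaged 0.122 ± 0.121 against 0.116 ± 0.070 (SD, 5 arrays each), with a log2 difference of -0.21 (adjusted p = 0.96 by limma). Their part in the Pycard difference was not tested.

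Pycard moved with the array level inside the age groups. With the age means removed, its log2 ratio and the array level had Pearson r = 0.681 over 11 arrays (permutation within age, p = 0.0085, adjusted p = 0.040 over 61 probes). Spearman rho was 0.718 (permutation p = 0.024, adjusted p = 0.098), and r was 0.619 without the 2 arrays farthest from the median level, young replicates 1 and 7. Such a relation was common on this array: 14 of the 61 probes, 23.0%, passed the same test. It no longer passed without young replicate 1, 2, 6 or 7 (adjusted p = 0.108, 0.058, 0.076 and 0.080, r from 0.625 to 0.700), nor after centring on the reference genes (r = 0.644, adjusted p = 0.070). Without removing age r was 0.309 (permutation p = 0.35, adjusted p = 0.62), where 16 of 79 probes, 20.3%, passed. At a like array level the aged arrays were lower: aged replicates 1, 2 and 4 had levels of -0.67, -0.56 and -0.44 and Pycard at 0.04, 0.01 and 0.12, while young replicates 5 and 6 had levels of -0.57 and -0.59 and Pycard at 0.44 and 0.18. Centred on the array level, the Pycard difference was -2.11 (95% interval -3.44 to -0.78, unadjusted p = 0.0040, adjusted p = 0.18 by limma). Centred on the 3 reference genes it was -1.58 (unadjusted p = 0.039, adjusted p = 0.68 by limma). Its direction held under each scaling tried, and it passed under none.

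**Figure D3:**
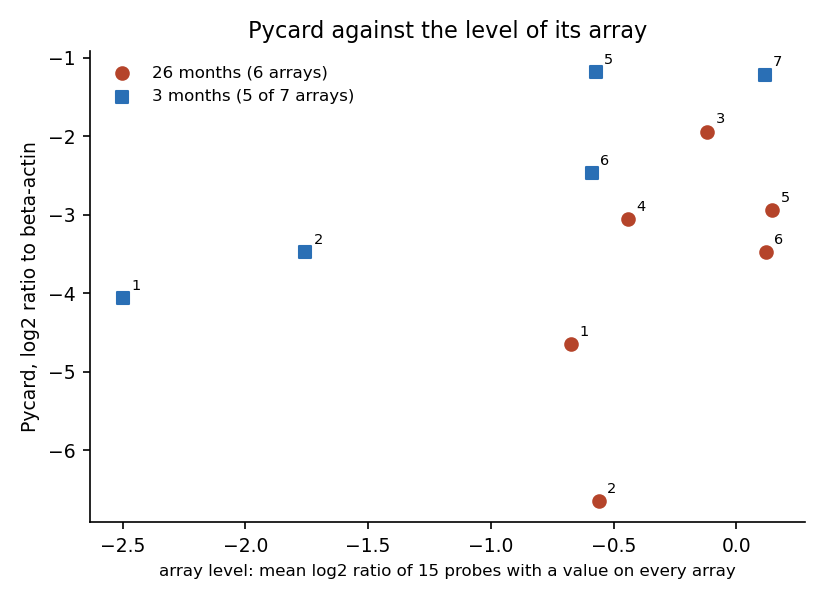
Each point is an array with a Pycard value, numbered by replicate; the horizontal axis is the array level (mean log2 ratio of the 15 probes with a value on every array) and the vertical axis is the log2 ratio of Pycard to beta-actin. Young replicates 5 and 6 lie above the aged arrays 1, 2 and 4 of similar level, and aged replicate 2 is the lowest point.

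Casp1 and Casp4 did not keep a direction under these scalings, and Casp12 was negative under each of them. Casp1 had a log2 difference of -0.06 centred on the reference genes, 0.60 centred on the median and -0.04 centred on the array level. Casp4 had -0.36, 0.11 and -0.36, and Casp12 had -0.33, -0.20 and -0.84. All of these had adjusted p-values above the threshold, 0.58 to 0.98 by limma. Centring on the array level moved the median of the 70 probes from 0.06 to -0.69, so -0.04 for Casp1 is higher, and -2.11 for Pycard lower, than that median.

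**Figure D4:**
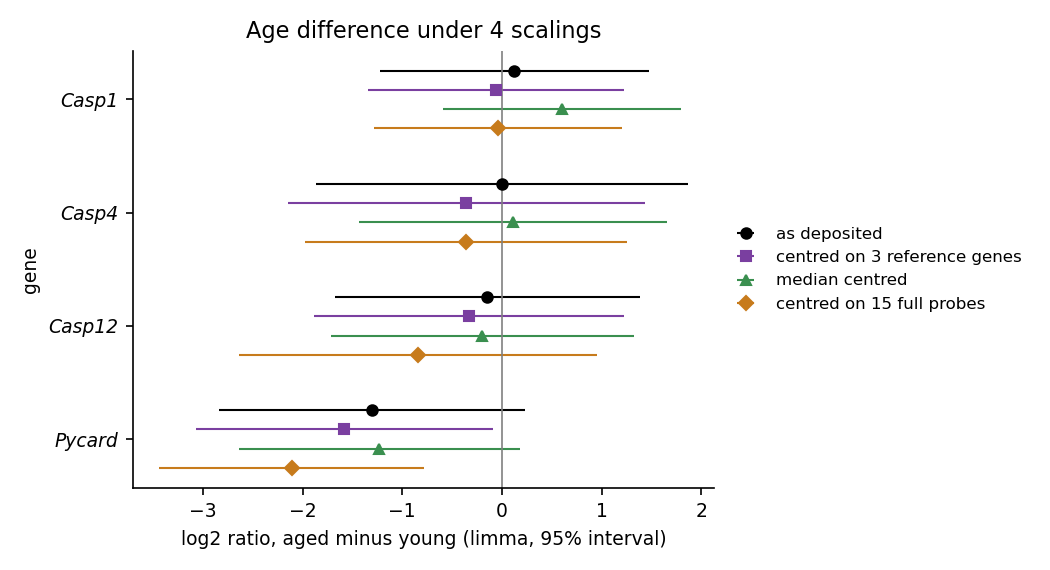
Points are log2 differences, aged minus young, from limma for the 4 tested genes, with 95% intervals as bars, under the deposited scale and 3 other scalings (centred on the reference genes, on the median and on the 15 probes with a value on every array). Casp1 and Casp4 lie on either side of 0, while Casp12 (-0.15 to -0.84) and Pycard (-1.23 to -2.11) are negative in all 4.

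Bcl10 had a value on 2 of 6 aged and 5 of 7 young arrays, and its aged ratios were the higher ones. Its 2 aged values were 0.11 on replicate 1 and 0.14 on replicate 4. Young replicates 1, 2, 4, 5 and 6 had 0.02, 0.02, 0.07, 0.04 and 0.07. The values of the groups did not overlap, with means of 0.125 ± 0.021 (SD, n = 2) and 0.044 ± 0.025 (SD, n = 5). Between the means of log2 ratios the fold was 3.27. Every aged value lay above every young one for 4 of the 85 probes with at least 2 values in each group, 4.71% of them. With the minimum lowered to 2 values, limma gave a log2 difference of 1.71 (SE 0.77, unadjusted p = 0.041, adjusted p = 0.55 over 85 probes). That fit called 1 of the 85 probes (1.18%), and 7 of them (8.24%) had an unadjusted p under 0.05. The exact permutation p was 0.095, and 7 values allow 21 splits, so none can fall below 0.048. The 4 blank aged arrays turn the picture: with blanks set to 0.01 the difference was -0.16. Bcl10 was blank on the 4 arrays of highest level, aged replicates 3, 5 and 6 and young replicate 7. Over the 7 arrays with a value, age not removed, its log2 ratio and the array level had r = 0.830 (exact permutation p = 0.021, adjusted p = 0.096 over 79 probes). Spearman rho was 0.709 (exact permutation p = 0.086, adjusted p = 0.28). Leaving out the pair farthest from the median level, young replicates 1 and 2, r was 0.229, so the relation rests on them. Their part in the age difference was not tested beyond leaving both out, which gave a log2 difference of 1.10.

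Detection by itself was then compared between the ages. Casp1 had a value on 5 of 6 aged and 3 of 7 young arrays, Casp4 on 4 of 6 and 3 of 7, and Casp12 on 4 of 6 and 4 of 7. Pycard had one on 6 of 6 aged and 5 of 7 young arrays. For Bcl10 the young share was the larger, as given above. None of these differences passed Fisher's exact test (unadjusted p = 0.27, 0.59, 1.0, 0.46 and 0.29 in that order, each with an adjusted p of 1.0 over 81 probes). The test called 0 of 81 probes, 0.0%, and 2 (2.47%) had an unadjusted p under 0.05. The numbers of arrays and of blanks limit this test. Pycard was blank on only 2 arrays, both young, so no other split of 2 blanks that way could give a smaller p. The opposite split, that of probe 2 (4 of 6 aged, 7 of 7 young), gave p = 0.19 by Fisher's exact test. The lack of calls therefore does not show equal detection. Taken over the 3 caspases, 13 of 18 cells had a value in aged arteries (72.2%) and 10 of 21 in young ones (47.6%). For the 2 adaptors it was 8 of 12 (66.7%) and 10 of 14 (71.4%). All gene probes together had a value in 69.3% of aged and 62.9% of young cells, so the caspases lay below that share in young arteries and near it in aged ones. With ratios of 0.02 or less also counted as not detected, the difference in detection, aged minus young, went from -38.1 to -9.52 percentage points for Bcl10 and from 28.6 to 11.9 for Pycard. A larger share of aged than of young arrays was found for 47 of the 81 probes, 58.0%, and for 4 of the 5 genes here.

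Caspases and adaptors were set against each other on the same array, as log2 of caspase over adaptor. Such a quotient does not depend on beta-actin, and it shows whether the pair changed unequally between arrays, not which RNA is more abundant. These quotients are given as a description, without a test. Casp1 over Pycard was 1.0, 3.17, -1.38, -0.42 and -0.85 on aged replicates 1, 2, 3, 4 and 6, and -2.17 and -1.62 on young replicates 6 and 7. Every aged quotient was above both young ones, with means of 0.31 and -1.89. Groups without overlap, in either direction, were found for 334 of 2887 quotients of 2 gene probes with at least 2 arrays in each group, 11.6% of them. The value of 3.17 rests on the Pycard ratio of aged replicate 2, 0.01, the floor of the table, as do the other quotients over Pycard on that array. Casp4 over Pycard was 0.58, 1.0, -2.0 and 0.69 on aged replicates 1, 2, 4 and 5. On young replicates 2, 6 and 7 it was -2.17, -2.17 and -1.26. Aged replicate 4 fell among the young arrays and the others lay above them, with means of 0.07 and -1.87.

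Casp12 over Pycard overlapped more. It was -1.0, 2.58, -2.12 and -1.17 on aged replicates 1, 2, 5 and 6, and 0.00 and -3.84 on young replicates 2 and 7. The difference of means was 1.5 and turned to -0.43 without young replicate 7. For Casp1 and Casp4 the differences over Pycard were 2.20 and 1.93, and 1.38 and 0.68 with all blanks at 0.01. Leaving out 1 array gave 1.48 (without aged replicate 2) to 2.62 for Casp1, and 1.62 (without aged replicate 2) to 2.62 (without aged replicate 4) for Casp4. For Casp12 the difference without aged replicate 2 was 0.49. All these quotients hold the same Pycard values in the denominator, so they are not separate evidence.

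Against Bcl10 the quotients were few. Casp1 over Bcl10 was -0.46 and -0.64 on aged replicates 1 and 4, and 0.00 and -0.81 on young replicates 4 and 6. Casp4 over Bcl10 was -0.87 and -2.22 on aged replicates 1 and 4, and 0.00 and -0.81 on young replicates 2 and 6. Both pairs overlapped between the ages. Casp12 over Bcl10 was -2.46 on aged replicate 1, and 2.17 and 0.19 on young replicates 2 and 4, with a single aged array.

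**Figure D5:**
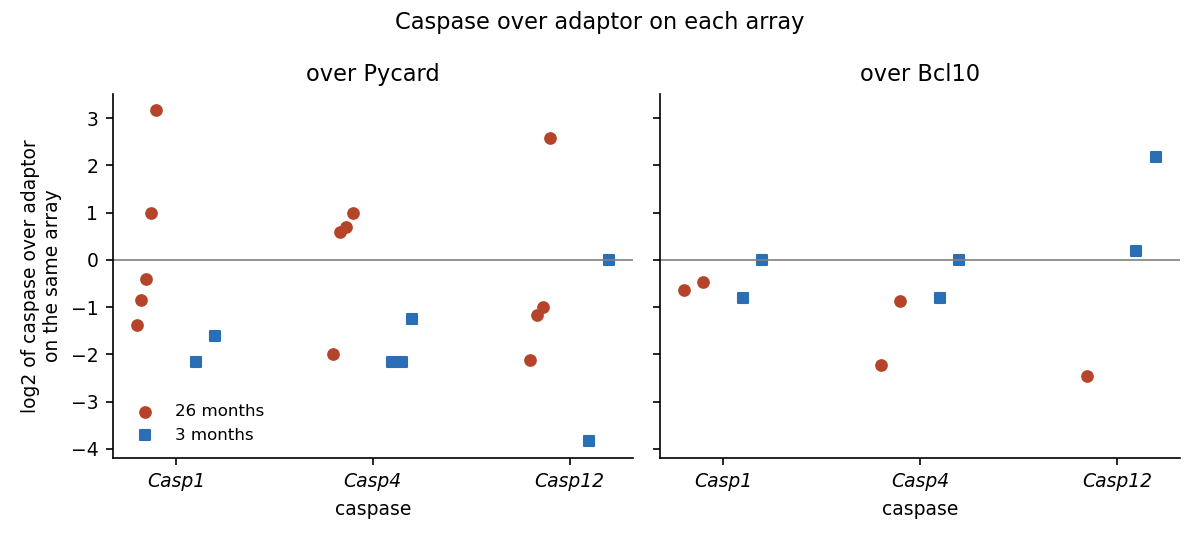
Points are log2 quotients of a caspase over an adaptor on single arrays, for aged (circles) and young (squares) arteries, with Pycard (left) or Bcl10 (right) as the denominator; the grey line marks 0. Over Pycard the aged quotients of Casp1 lie above the 2 young ones and those of Casp4 mostly do; over Bcl10 the ages overlap for Casp1 and Casp4.

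Co-variation between the 5 genes could be followed over few arrays, since 24 of their 65 cells were blank. None of their 10 pairs had a value for both genes on 8 or more arrays. Casp1 and Pycard, the caspase and its own adaptor, shared 7 arrays, as did Casp4 and Pycard. Casp12 and Pycard shared 6, Pycard and Bcl10 6, the caspases 5 with each other, and a caspase and Bcl10 3 or 4. Casp4 had no value on an array without Pycard. For the 4 pairs with at least 6 shared arrays, r was taken on the log2 scale with both ages pooled, without removing age means. Bcl10 and Pycard had log2 age differences of opposite sign (1.71 and -1.30), whose part in r was not tested. The pooled r values were 0.130 for Casp1 and Pycard, 0.584 for Casp4 and Pycard, -0.263 for Casp12 and Pycard and -0.032 for Bcl10 and Pycard. Their exact permutation p-values were 0.79, 0.17, 0.65 and 0.95, with adjusted p of 0.67 or more over 2227 pairs of probes. Spearman's rho was 0.450, 0.613, -0.235 and 0.058 (exact permutation p = 0.32, 0.15, 0.66 and 0.93). The median r of all 2227 pairs was 0.219, and 17 of them, 0.763%, passed. Without the 2 arrays of Pycard farthest from its median, aged replicate 2 and young replicate 7, r for Casp4 and Pycard was 0.040. Casp1 and Pycard had r = -0.007 without the same arrays, and Casp12 and Pycard 0.460. Bcl10 and Pycard had 0.721 without aged replicate 1 and young replicate 5. Centred on the array level, with ages still pooled, r with Pycard was -0.147 for Casp1, 0.479 for Casp4, 0.044 for Casp12 and -0.831 for Bcl10. At these numbers of arrays no co-variation of the caspases with Pycard was detectable. Pairs of a caspase and Bcl10 shared too few arrays to be examined.

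The probes most like each gene were taken by the correlation of log2 ratios with age means removed, over at least 8 shared arrays. Of 1150 such pairs of probes, 14 passed (1.22%). Of the 81 pairs that held Casp1, Casp12 or Pycard, 0 passed by Pearson or Spearman permutation test. An unadjusted Pearson permutation p under 0.05 was found for 11 of the 81, beside 140 of all 1150 pairs. All 11 were among the 41 pairs that held Pycard. Casp4 and Bcl10 had no pair with enough arrays. Pycard was most like Bok, a pro-apoptotic Bcl-2 relative (r = 0.939 over 8 arrays), Bcl2l10, another Bcl-2 family member (r = 0.870 over 10 arrays), and Atm, the DNA damage kinase (r = 0.863 over 9 arrays). Their permutation p-values were 0.0074, 0.0024 and 0.0089, with adjusted p of 0.17, 0.11 and 0.18, and rho was 0.905, 0.709 and 0.820. Without the 2 arrays of Pycard farthest from its median r was 0.894, 0.633 and 0.821. With the ratios centred on the array level r was 0.69, 0.82 and 0.69. The median r of the 41 pairs that held Pycard was 0.322, beside 0.235 over all 1150 pairs. All these ratios share the beta-actin signal of their array.

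Casp1 was most like Casp9, the initiator caspase of the mitochondrial pathway (r = 0.715), probe 39 (r = 0.680), which the annotation does not list, and the death receptor caspase Casp8 (r = 0.543), each over 8 arrays. Their adjusted permutation p-values were 0.52, 0.68 and 0.85. Without young replicates 6 and 7 the r values were 0.408, 0.113 and -0.071, so they rest largely on those arrays. Casp12 had no close partner: the highest r values were 0.325 with Traf4, 0.294 with Traf1 and 0.25 with Tnfrsf21, over 8 arrays each (adjusted permutation p = 0.70, 0.88 and 0.93). The median r of the 20 pairs that held Casp12 was -0.225, against 0.147 for the 20 that held Casp1.

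The rest of the pathway was sparse on this array. Of 7 other caspases in the list 5 were present, and 0 of these passed limma in either direction. The aged mean of log2 ratios was the higher for all 5 as deposited, for 3 with reference gene centring and for 2 with centring on the array level, beside 40, 29 and 13 of all 70 probes. Their highest difference was that of Casp9 (1.61, unadjusted p = 0.0065, adjusted p = 0.23 by limma) and the lowest that of Casp8 (0.03, adjusted p = 0.98 by limma). The median of these 5 was 0.86, beside 0.06 over all 70 probes.

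Among 18 other CARD proteins 7 were present and 6 tested, and 0 passed. The aged mean of log2 ratios was the higher for 4 of the 6, or 2 with centring on the array level, beside 40 and 13 of all 70 probes. The highest difference was again that of Casp9, which is in both lists, and the lowest that of Birc3, an inhibitor of apoptosis (-1.01, adjusted p = 0.72 by limma). Apaf1, the CARD adaptor of caspase-9, had a mean ratio of 0.108 ± 0.040 in aged arteries (SD, n = 4) against 0.130 ± 0.062 in young ones (SD, n = 4). Its log2 difference was -0.25 (adjusted p = 0.96 by limma). Cradd, a CARD adaptor of caspase-2, had a value on 1 aged array (0.03) and 3 young ones, too few for the test.

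Of 15 inflammasome sensors, substrates and cytokines 2 were present, the NAIP-type sensors Naip2 and Naip5. Naip5 was tested and did not pass (-0.94, adjusted p = 0.86 by limma), and Naip2 had 2 aged values. Neither interleukin-1 beta, interleukin-18 nor gasdermin D was among the annotated probes, so the RNAs of these caspase-1 substrates were not measured here. Of 13 partners of Bcl10 towards NF-kB, 2 were present, Traf2 (0.51, adjusted p = 0.89 by limma) and Traf6 (-0.12, adjusted p = 0.98 by limma), and neither passed.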

How the data were processed

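The deposited table holds linear ratios that the authors scaled to beta-actin. This was read from the values, since the 2 Actb spots average 1 on all 13 arrays. Of 1248 gene probe cells, 426 (34.1%) were blank. How spots were scanned and background corrected was not stated in the sources used here, so signal over background is unknown, and an error in the beta-actin signal moves all genes of an array together. Groups came from the sample descriptions.

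Log2 ratios, with no pseudocount, were fitted with limma 3.58.1 (R 4.3.3, two-sided) over all 70 gene probes with at least 3 values per group. The threshold was an adjusted p of 0.05. Detection used Fisher's exact test, and correlations used 100000 permutations within age, or exact tests (SciPy 1.17.1). Scripts were tested on simulated data. Alternatives covered scaling, blanks, a pseudocount of 0.02, filters, tests, a replicate block and leaving out arrays.

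Named genes were the 5 members, the 3 probes most like each, those past the threshold and the extremes of preset lists. Apaf1, Cradd and Naip2 were named after their values were seen. The members and lists were chosen with earlier results of these data known. Array-level relations and the 6-array pairs were added after the data were seen.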

Additional observations from a re-analysis of the deposited data

How the results depend on the processing

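No member passed limma or Fisher's exact test under any alternative run. Pycard kept its direction in all 27 alternatives (leaving out 1 array, -1.70 to -0.73, with adjusted p from 0.18 to 0.99 by limma or exact permutation over all alternatives). Some of these could not move its difference and left it at -1.30. They were the filter at the 25th percentile, the minimum of 2 values, the exact test, and leaving out young replicate 3 or 4, where Pycard was blank. With blanks at 0.01 the Pycard difference was -0.11. Directions turned for the caspases. Casp1 was -0.061 centred on the reference genes, -0.038 centred on the array level, -0.0013 on linear ratios and -0.078 at the low end of rounding, with -0.31 to 0.59 leaving out 1 array. Casp4 was -0.36 centred on the reference genes, -0.36 centred on the array level, -0.0076 with a pseudocount of 0.02, -0.69 without young replicates 1 and 2 and -0.39 at the low end of rounding, with -0.69 to 0.89 leaving out 1 array. Casp12 was 0.087 with blanks at 0.01, 0.26 without young replicates 1 and 2 and 0.42 at the high end of rounding, with -0.79 to 0.26 leaving out 1 array. Bcl10 was -0.16 with blanks at 0.01, and 1.48 to 1.93 leaving out 1 array. Leaving out 1 array, the difference over Pycard was 1.48 to 2.62 for Casp1, 1.62 to 2.62 for Casp4 and -0.43 to 3.42 for Casp12.

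The 1 probe past the threshold in the age comparison became 0 centred on the reference genes, centred on the array level, with blanks at 0.01, in the exact permutation test and with the replicate block, 2 on linear ratios, and 0 to 1 leaving out 1 array. The relation of Pycard to the array level was 0.644 centred on the reference genes and 0.625 to 0.810 leaving out 1 array. In the co-variation test, 0 to 1 pairs with a member passed leaving out 1 array: Pycard with Gadd45a without aged replicate 2 (r = 0.891, adjusted permutation p = 0.042) and Pycard with Bik without aged replicate 3 (r = 0.866, adjusted permutation p = 0.040). Causes of these changes were not tested.

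Same-numbered arrays share a number in the labels, which name no pairing. Their deviations from the age means correlated at -0.13 to 0.37. Of the 6 aged arrays, 3 correlated best with their own number, each set against 7 young arrays. Whether the number marks something shared was not tested. With a replicate block over the 6 shared numbers the Pycard difference was -1.63 (6 aged and 4 young values, adjusted p = 0.21 by limma). That of Casp1 was 0.34 (5 aged and 2 young values, adjusted p = 0.73 by limma). Blanks left both genes with fewer than 6 complete pairs: replicates 4 and 6 for Casp1, and replicates 1, 2, 5 and 6 for Pycard. Aged values without a young value of the same number do not enter the block difference. Casp4 and Casp12 had too few complete pairs, and Bcl10 too few values for the test, so these genes have no block value. Signal over background is not known from these ratios. Of the 65 cells of the 5 genes 24 are blank, and 16 of the 41 ratios are 0.05 or less.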
